A study of Mus musculus with 6 samples.

Results

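The IFIT genes (interferon-induced proteins with tetratricopeptide repeats) and the IFITM genes (interferon-induced transmembrane proteins) are compact mouse gene families of the interferon response. The 8 genes described here were taken by name from the deposited count table: Ifit1, Ifit2, Ifit3, Ifit3b and Ifit1bl1 of the IFIT family, and Ifitm1, Ifitm2 and Ifitm3 of the IFITM family. They are 8 of 55571 gene symbols, and all 8 were among the 13594 genes with enough counts to be tested. RNA was sequenced from E0771, a mouse mammary carcinoma cell line, in 3 libraries of cells expressing wild-type Malt1 (Malt1-WT) and 3 libraries of cells carrying the vector control. Both groups were at basal condition, with no stimulus. MALT1 is a scaffold protein and protease of the NF-kB pathway. The labels and design text do not give the promoter that drives Malt1, or whether each line is 1 clone. They also do not state that libraries of 1 group were separate cultures, so the p-values reflect the spread among these libraries alone, and that spread may be technical.

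Type I interferon acts through its receptor, the kinases JAK1 and TYK2 and the factor complex ISGF3, which binds the interferon-stimulated response element (ISRE) in the promoters of its target genes. IFIT genes are classical targets: they are low in resting cells and are also induced directly by IRF factors. IFIT1 binds RNA whose cap lacks 2′-O methylation and blocks its translation. In human cells IFIT3 binds IFIT1 and IFIT2 and stabilises the complex. IFITM proteins sit in membranes, where they hinder the fusion of enveloped viruses with the cell. IFITM3 does so mainly in endosomes and IFITM1 mainly at the cell surface.

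The stretches of 200 bases just before the annotated start of 6 of the genes are shown because the ISRE lies in this region in classical interferon targets, and because its pattern occurs in 4 of them and not in those of Ifit2 and Ifitm3. All are from RefSeq on build GRCm38.p6, read 5′ to 3′ on the strand of the gene. Capitals mark matches to the ISRE, searched on both strands as GAAA, any 2 bases and GAAA again, which reads TTTC, any 2 bases and TTTC on the opposite strand.
Ifit1 (chr19:34640689-34640888, plus strand): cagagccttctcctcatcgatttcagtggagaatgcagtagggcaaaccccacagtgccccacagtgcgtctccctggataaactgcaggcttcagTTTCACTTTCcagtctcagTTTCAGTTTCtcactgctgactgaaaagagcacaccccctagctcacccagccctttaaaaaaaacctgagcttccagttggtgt
Ifit3 (chr19:34583329-34583528, plus strand): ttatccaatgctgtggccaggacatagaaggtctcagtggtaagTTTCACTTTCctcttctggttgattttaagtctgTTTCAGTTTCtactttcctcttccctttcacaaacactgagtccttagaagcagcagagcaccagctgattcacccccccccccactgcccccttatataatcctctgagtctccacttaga
Ifit3b (chr19:34607757-34607956, plus strand): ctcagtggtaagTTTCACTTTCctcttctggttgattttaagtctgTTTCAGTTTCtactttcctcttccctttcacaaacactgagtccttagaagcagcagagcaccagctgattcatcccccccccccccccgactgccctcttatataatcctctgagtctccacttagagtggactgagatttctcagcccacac
Ifit2 (chr19:34550494-34550693, plus strand): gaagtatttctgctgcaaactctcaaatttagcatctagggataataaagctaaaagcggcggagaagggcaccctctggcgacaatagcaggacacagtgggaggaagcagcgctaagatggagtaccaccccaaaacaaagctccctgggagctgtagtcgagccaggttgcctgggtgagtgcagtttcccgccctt
Ifitm2 (chr7:140955962-140956161, minus strand): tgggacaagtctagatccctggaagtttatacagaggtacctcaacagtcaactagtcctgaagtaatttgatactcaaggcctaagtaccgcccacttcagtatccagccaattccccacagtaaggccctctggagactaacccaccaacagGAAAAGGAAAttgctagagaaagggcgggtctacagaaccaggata
Ifitm3 (chr7:141010745-141010944, minus strand): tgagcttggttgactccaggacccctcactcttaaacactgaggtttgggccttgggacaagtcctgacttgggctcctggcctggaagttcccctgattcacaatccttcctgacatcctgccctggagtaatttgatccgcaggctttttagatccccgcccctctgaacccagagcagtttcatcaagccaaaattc

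All 8 genes matched the RefSeq promoter table, with 10 start sites between them, since Ifit2 and Ifit1bl1 have 2 each. In the 250 bases before a start, the ISRE pattern occurred in 5 of the 8 genes, and 3 of them (Ifit1, Ifit3 and Ifit3b) held 2 matches. Counted by start site, that was 6 of 10 windows. The same pattern occurred in 2.98% of all 32851 promoters of that length in the table, also counted by start site. The windows of Ifit3 and Ifit3b are near-identical, and so are the stretches around the match in the 2 windows of Ifit1bl1. The matches within each of these pairs are not separate observations. In Ifit1 the matches lay 104 to 95 and 85 to 76 bases before the start, in Ifit3 156 to 147 and 122 to 113, and in Ifit3b 188 to 179 and 154 to 145. Ifit1bl1 held 1 match at each of its starts, and Ifitm2 held 1 match 46 to 37 bases before its start. Ifit2, Ifitm1 and Ifitm3 held no ISRE match in this window. That holds for this exact pattern and these RefSeq starts only, and a looser or more distant element would be missed. The start used for Ifitm1, at 140968076, lies inside the GENCODE gene, which begins at 140967221. The gamma-activated sequence GAS, searched on both strands as TTC, any 3 bases and GAA, occurred in 1 member, Ifit2, ending 233 bases before its first start, and in 7.02% of all promoters. The kappa-B pattern of NF-kB, searched on both strands as GGG, any 2 bases and TTTCC, occurred in 0 of the 8 members and in 1.41% of all promoters. No match overlapped a match to another motif, and a match is a description of letters, not evidence of binding.

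Of the 8 members, 6 were called higher and 1 lower in Malt1-WT than in vector control, and 1 did not pass the test. All 5 IFIT genes were called higher, with a median log2 fold change of 1.35, whereas the IFITM genes divided into 1 higher, 1 lower and 1 not called. The call of Ifit1bl1, at few reads, follows in part from the filter on low counts and did not hold under several settings. The counts and medians given here include that gene. A gene was called at an adjusted p under 0.05 in edgeR's quasi-likelihood test with Benjamini-Hochberg adjustment over all tested genes. By that rule 61.2% of the tested genes were called, 31% higher and 30.2% lower, so a call alone sets a gene apart little in this comparison. The libraries of the groups did not overlap in CPM for 64.4% of tested genes, and in 32.4% all Malt1-WT libraries were above. Among the members 6 had all Malt1-WT libraries above, 1 had them below and 1 overlapped. The median log2 fold change of the 8 members was 0.90, against -0.00286 over all tested genes. When the test was made against a 1.5-fold change, an option chosen after the data were seen, 16.6% of tested genes were called, with 3 members among them, Ifit1, Ifit3 and Ifit3b. In bulk RNA, more cells expressing a gene and more RNA per cell cannot be told apart.

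**Figure D1:**
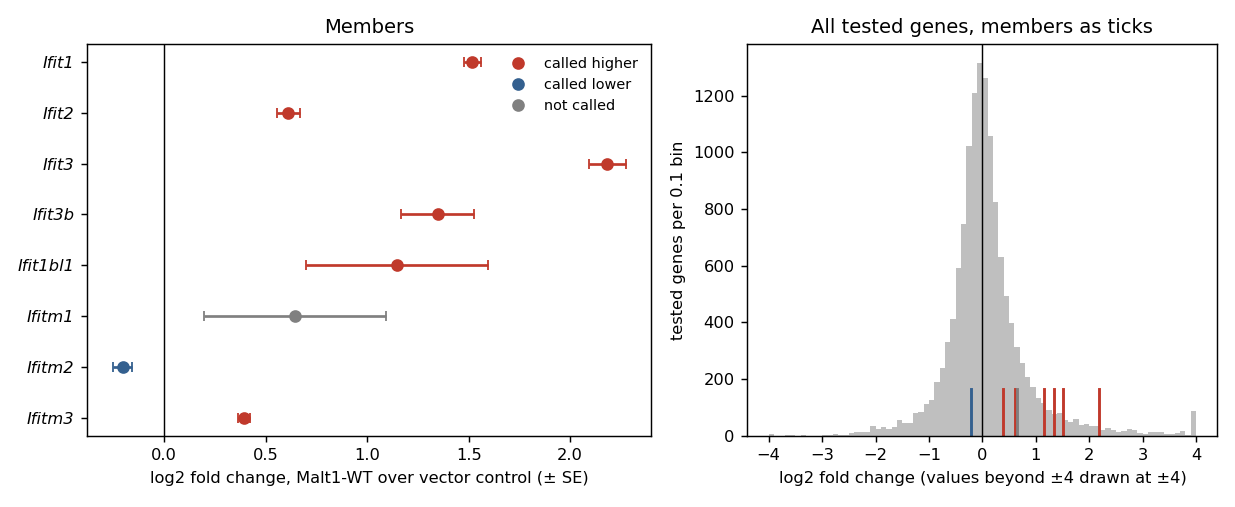
Log2 fold change of each member, Malt1-WT over vector control, from the edgeR fit over all genes (bars, ± 1 standard error, 3 libraries per group). The 5 IFIT genes lie between 0.61 and 2.18, while Ifitm3 is at 0.39 and Ifitm2 at -0.21.

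Ifit3, a partner of IFIT1 and IFIT2 in human cells, had the largest change of the 8 members. It had 32.6, 30.8 and 34.2 CPM (the usual depth-scaled unit of read counts, here with TMM library factors) in the Malt1-WT libraries, against 7.01, 7.71 and 6.71 CPM in the vector control libraries. All 3 Malt1-WT libraries lay far above all 3 vector control libraries. The means were 32.5 ± 1.70 CPM in Malt1-WT and 7.14 ± 0.512 CPM in vector control (SD, n = 3 each). The log2 fold change was 2.18 ± 0.0913 (standard error), or 4.54-fold (edgeR adjusted p = 5.73e-27).

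Ifit1, the sensor of incompletely capped RNA, had more RNA per length of transcript than any other IFIT gene here. It had 191, 186 and 182 CPM in Malt1-WT, against 61.0, 70.9 and 62.8 CPM in vector control. The groups were wide apart, and the Malt1-WT libraries differed little among themselves. The means of 186 ± 4.48 CPM in Malt1-WT and 64.9 ± 5.28 CPM in vector control (SD, n = 3 each) gave a log2 fold change of 1.52 ± 0.0428 (edgeR adjusted p = 5.34e-34). That is 2.86-fold.

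Ifit2, which in mice is known to protect neurons against neurotropic viruses, changed least among the IFIT genes. It had 54.9, 57.0 and 60.8 CPM in Malt1-WT, against 36.2, 39.2 and 37.6 CPM in vector control. The groups did not overlap, but the gap between them was small beside that of Ifit1 or Ifit3. The log2 fold change was 0.61 ± 0.0568, or 1.53-fold (edgeR adjusted p = 1.54e-13).

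Ifit3b is a near-identical copy of Ifit3. It had 6.04, 5.79 and 5.50 CPM in Malt1-WT, against 2.04, 2.60 and 2.14 CPM in vector control. Every Malt1-WT library was above every vector control library, at levels well under those of Ifit3. The log2 fold change was 1.35 ± 0.180 (edgeR adjusted p = 5.29e-09). The coding sequences of the pair were identical at 99.1% of 1209 aligned bases, and their upstream windows at 99.1% of 218 aligned bases. Of all stretches of 150 bases, the read length, 296 of 1596 in Ifit3 and 296 of 1851 in Ifit3b occur in the other gene. The sources do not state how reads that fit both genes were counted, so the division of reads between the pair is uncertain. Summed into 1 feature, the pair had a log2 fold change of 2.02.

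Ifit1bl1, an Ifit1-like gene on the same chromosome, was near the limit of detection, with 19, 12 and 17 reads in Malt1-WT, against 6, 5 and 12 reads in vector control. The lowest Malt1-WT library, at 0.599 CPM, barely exceeded the highest vector control library, at 0.597 CPM. Its log2 fold change of 1.15 ± 0.449 was called (edgeR adjusted p = 0.0242). The gene passed the filter on low counts with all 3 Malt1-WT libraries and 1 vector control library, so its call follows from that filter in part. The call also did not hold under several settings. It was lost with no filter on low counts (adjusted p = 0.0566) and in DESeq2 (adjusted p = 0.127). It was also lost when Malt1-WT replicate 1 (0.105) or 3 (0.0823), or vector control replicate 1 (0.0785) or 2 (0.130), was left out. Over all alternatives that could test it, its adjusted p ran from 0.0123 to 0.130.

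The IFITM genes did not share a direction. Ifitm3, the family member that restricts virus entry from endosomes, was among the abundant genes of these cells, above 98.9% of tested genes in mean CPM. It had 801, 770 and 791 CPM in Malt1-WT, against 584, 596 and 619 CPM in vector control. The groups were apart, with a spread of a few percent inside each. The means were 787 ± 15.8 CPM in Malt1-WT and 599.7 ± 17.7 CPM in vector control (SD, n = 3 each), and the log2 fold change was 0.39 ± 0.0275, or 1.31-fold (edgeR adjusted p = 6.69e-18).

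Ifitm2, a close relative of Ifitm3 also found in endosomes, went the other way. It had 91.6, 75.0 and 83.5 CPM in Malt1-WT, against 94.4, 96.1 and 97.2 CPM in vector control. All Malt1-WT libraries were below all vector control libraries, but Malt1-WT replicate 1 came close to them. The means were 83.3 ± 8.29 CPM in Malt1-WT and 95.9 ± 1.42 CPM in vector control, and the log2 fold change was -0.21 ± 0.0483 (edgeR adjusted p = 2.68e-04). Of the stretches of 150 bases in Ifitm2, 23.5% are shared with Gm45717, an overlapping annotated transcript that had 0 counts in every library.

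Ifitm1, the cell surface member, was close to undetected, with 13, 11 and 17 reads in Malt1-WT, against 5, 15 and 8 reads in vector control. The groups overlapped, since vector control replicate 2 exceeded Malt1-WT replicates 1 and 2 in CPM. Its log2 fold change of 0.65 ± 0.448 was not called (edgeR adjusted p = 0.214), and it ran from 0.39 without vector control replicate 1 (0.40 without Malt1-WT replicate 3) to 1.12 without vector control replicate 2, not called in any of these.

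Levels of different genes were compared per kilobase of annotated exon, in CPM per kb, since longer transcripts yield more reads. In Malt1-WT the order of mean level was Ifitm3 at 1161 ± 23.3, Ifitm2 at 127 ± 12.7, Ifit1 at 70.1 ± 1.69, Ifit3 at 18.6 ± 0.977, Ifit2 at 14.7 ± 0.767, Ifit3b at 2.89 ± 0.136, Ifitm1 at 0.692 ± 0.205 and Ifit1bl1 at 0.392 ± 0.111 CPM per kb (SD, n = 3). In vector control it was Ifitm3 at 885 ± 26.1, Ifitm2 at 146 ± 2.17, Ifit1 at 24.4 ± 1.99, Ifit2 at 9.59 ± 0.379, Ifit3 at 4.09 ± 0.293, Ifit3b at 1.13 ± 0.150, Ifitm1 at 0.430 ± 0.218 and Ifit1bl1 at 0.173 ± 0.0810 CPM per kb. Per kb, Ifit3 and Ifit2 thus stood in opposite order in the 2 groups, in every library. That switch rests on exon lengths of 1.745 kb for Ifit3 and 3.927 kb for Ifit2, each merged over the annotated transcripts. In CPM without this division, Ifit2 was above Ifit3 in every library. Within each group, neighbours in the order per kb did not overlap across libraries, except Ifitm1 and Ifit1bl1 in vector control.

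The make-up of each family differed accordingly. As a share of the summed level of the 5 IFIT genes per kb, Ifit3 made up 16.8% to 18.4% in the Malt1-WT libraries and 10.02% to 10.75% in the vector control libraries. Ifit2 made up 12.9% to 14.5% in Malt1-WT and 23.5% to 24.9% in vector control. Ifit1 held most of the sum in both groups, at 64.2% to 66.6% in Malt1-WT and 61.5% to 62.8% in vector control. Among the 3 IFITM genes, Ifitm3 made up 89.4% to 90.8% in Malt1-WT and 85.7% to 86.0% in vector control, and nearly all the rest was Ifitm2.

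**Figure D2:**
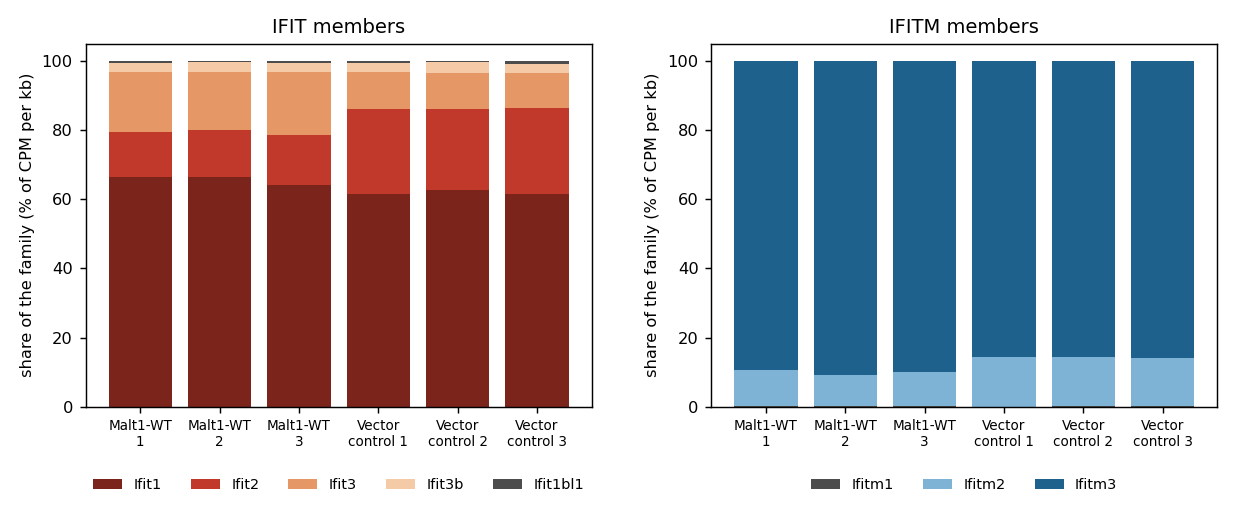
Share of each gene in the summed CPM per kb of its family, by library, Malt1-WT libraries left of vector control libraries. Ifit3 takes 16.8% to 18.4% of the IFIT sum in Malt1-WT and 10.02% to 10.75% in vector control.

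Ratios of members within a library do not depend on library scaling, and 5 such ratios were tested with an exact two-sided permutation test over the libraries, for which 3 against 3 cannot go below p = 0.1. The mean log2 ratio of Ifit2 over Ifit1 was -1.69 ± 0.109 in Malt1-WT and -0.78 ± 0.0634 in vector control (SD, n = 3 each; difference -0.91, exact p = 0.1). That of Ifit3 over Ifit1 was -2.52 ± 0.0949 in Malt1-WT and -3.18 ± 0.0550 in vector control (difference 0.66, exact p = 0.1). Ifit3b over Ifit3 was -2.49 ± 0.125 in Malt1-WT and -1.65 ± 0.105 in vector control (difference -0.83, exact p = 0.1), with the uncertainty of that pair given above. For Ifitm2 over Ifitm3 the ratio was -3.24 ± 0.116 in Malt1-WT and -2.64 ± 0.0225 in vector control (difference -0.60, exact p = 0.1). In these 4 ratios all Malt1-WT libraries lay on 1 side of all vector control libraries, so each reached the smallest p that the design allows (0.125 after Benjamini-Hochberg adjustment over the 5 ratios). The ratio of Ifitm1 over Ifitm3 overlapped between the groups (difference 0.33, exact p = 0.4, adjusted 0.4).

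The relatives of the members moved in part with them. Ifit1bl2, the other Ifit1-like gene, had 95, 152 and 117 reads in Malt1-WT, against 50, 53 and 55 reads in vector control, and was called higher (log2 fold change 1.29 ± 0.172, edgeR adjusted p = 5.13e-09). Ifitm6, with 56, 46 and 40 reads in Malt1-WT, against 40, 71 and 58 reads in vector control, overlapped and was not called (log2 fold change -0.15, edgeR adjusted p = 0.572). Ifitm5, known from bone, Ifitm7 and Ifitm10 had too few reads to be tested. They had at most 17 reads in a Malt1-WT library and at most 23 in a vector control library.

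Both families lie in clusters. On build GRCm38, with the GENCODE M21 annotation, the IFIT genes fill 99.3 kb of chromosome 19 from 34550694 to 34650009, in the order Ifit2, Ifit3, Ifit1bl1, Ifit3b, Ifit1bl2 and Ifit1. Ifit1 (34640871 to 34650009, plus strand) and Ifit1bl2 (34617049 to 34640743, minus strand) face away from each other across 127 bases. The 2 ISRE matches shown for Ifit1 are therefore also those found before the upper start of Ifit1bl2. The 3 IFITM members span 55.9 kb of chromosome 7 from 140954837 to 141010770, in the order Ifitm2, Ifitm1 and Ifitm3.

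Within 300 kb of the IFIT cluster, 6 protein-coding genes that are not among the 8 members were tested, Ifit1bl2 of the cluster itself included, of which 4 were called higher and 2 lower. Ch25h, an interferon-stimulated enzyme that makes 25-hydroxycholesterol, lay 75.5 kb before the cluster and had a log2 fold change of 2.84 ± 0.168 (edgeR adjusted p = 1.06e-20). Kif20b, a kinesin of cell division, lay 272.4 kb after it and had a log2 fold change of -1.99 ± 0.0496 (edgeR adjusted p = 1.02e-36). Lipa, the lysosomal acid lipase and the nearest neighbour before the cluster, had a log2 fold change of 0.22. Slc16a12, the nearest after it, had no count. Around the IFITM cluster 19 other genes were tested, of which 2 were called higher, 7 lower and 10 not at all. For both clusters, the shares over all tested genes were 31% higher and 30.2% lower. The nearest tested neighbour apart from family members, Pgghg, had a log2 fold change of -0.32 (edgeR adjusted p = 0.0443), and that call was lost with no filter (adjusted p = 0.0649), in DESeq2 (0.178), with the replicate number as a block (0.0544), and without Malt1-WT replicate 1 (0.0748) or 2 (0.177) or vector control replicate 1 (0.0718) or 2 (0.133). Pkp3, a desmosomal plakophilin, was lower (log2 fold change -1.11 ± 0.163, edgeR adjusted p = 5.61e-08). Irf7, an amplifier of type I interferon production 251.9 kb after the IFITM cluster, was singled out after its value was seen and had a log2 fold change of 0.96.

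**Figure D3:**
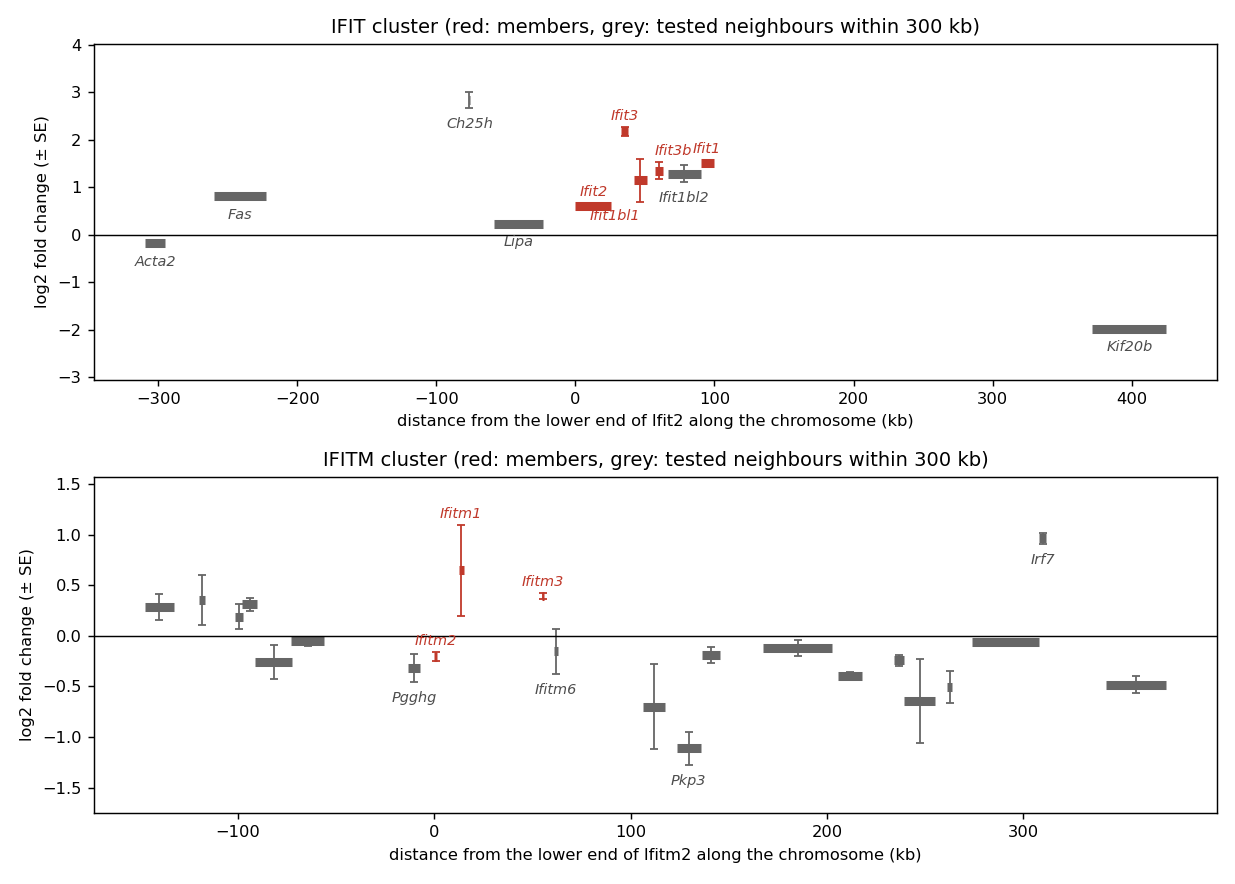
Log2 fold change, Malt1-WT over vector control (± 1 standard error), of the members and of the tested protein-coding genes within 300 kb, against distance along the chromosome from the lower end of the first member. IFIT members all lie above 0, and Ch25h at 2.84 and Kif20b at -1.99 flank them.

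The genes upstream of the 2 families were examined by role. Each count by list stands beside 31% called higher and 30.2% called lower over all tested genes. Of 21 interferon ligand genes, 16 had no count in any library and 1, Ifnb1, was tested. Ifnb1 encodes interferon beta and had 15, 14 and 13 reads in Malt1-WT, against 1, 2 and 1 in vector control. All Malt1-WT libraries were above all vector control libraries, at few reads in both groups. It passed the filter on low counts only through the Malt1-WT libraries, so its call follows from that filter in part and is not used here. Of 5 tested receptor genes, 4 were higher and 1, Il10rb, was not called, with a median log2 fold change of 0.24. The interferon gamma receptor chain Ifngr2 was at 0.97 and the type I receptor chain Ifnar2 at 0.51. Ifngr1 was at 0.23 and Ifnar1 at 0.16, and the call of Ifnar1 was lost under scaling by total count alone (0.083, adjusted p = 0.215), in DESeq2 (0.16, adjusted p = 0.0992), and when replicate 1 of vector control was left out (0.084, adjusted p = 0.240).

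All 10 signal transducers and IRF genes were called higher, with a median log2 fold change of 0.89. The smallest change was that of Jak1, at 0.070 (edgeR adjusted p = 0.0420), whose libraries overlapped between the groups. Under scaling by total count alone 9 of the 10 were called, and with a library left out 9 to 10. Irf1, a factor that binds the ISRE, was at 2.49 ± 0.0353 (edgeR adjusted p = 1.53e-47). Its levels were 436, 417 and 449 CPM in Malt1-WT, against 76.6, 76.6 and 78.6 CPM in vector control, so the groups were several-fold apart. The kinase gene Jak2 was at 1.91 and Stat2, a subunit of ISGF3, at 1.18. All 5 feedback inhibitors were also higher, with a median of 0.79. Among them the JAK inhibitors Socs1 and Socs3 were at 1.76 and 0.88, Usp18, which shuts off the type I receptor, at 0.79, and the repressor Irf2 at 0.37.

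Of 10 genes of nucleic acid sensing, 6 were higher, 1 lower and 3 not called, with a median log2 fold change of 0.29. The kinase Ikbke was at 1.73, and the RNA sensors Dhx58 and Ifih1 were at 0.83 and 0.80. Mavs, the mitochondrial adaptor of RNA sensing, was the lower gene, at -0.39 ± 0.0585 (edgeR adjusted p = 1.10e-07). Traf3 at 0.081, Tmem173 (STING) at 0.089 and Cgas at -0.15 were not called. Without Malt1-WT replicate 1, Traf3 was called (log2 fold change 0.105, edgeR adjusted p = 0.0488).

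Genes tied to the known functions of IFIT proteins, and the partners and modifiers of IFITM proteins, did not move in 1 direction. Of 19 genes of cap methylation and of eIF3, the translation factor that IFIT proteins bind, together with the cap-binding protein Eif4e, 5 were higher, 7 lower and 7 not called. Their median log2 fold change was -0.00459. Over all tested genes 31% were called higher and 30.2% lower, so this division is near that of all genes. Cmtr2, a cap 2′-O methyltransferase, was at 0.88 ± 0.0591 (edgeR adjusted p = 1.27e-18), and the cap guanine methyltransferase Rnmt was at 0.44. The eIF3 subunit genes Eif3c, Eif3g and Eif3d were at 0.30, 0.25 and 0.16. The 7 lower genes were Eif4e at -0.24, Eif3l at -0.20, Ramac at -0.19, Eif3b at -0.15, and Eif3a, Eif3e and Eif3i, each at -0.10. Of 6 tested partners and modifiers of IFITM proteins, 3 were higher, 2 lower and 1 not called, against 2 higher and 3 lower when libraries were scaled by total count alone. Nedd4, the ubiquitin ligase that marks IFITM3 for turnover, was at -0.51 ± 0.0276 (edgeR adjusted p = 2.18e-22), and Setd7, which methylates IFITM3, was at -0.22. The palmitoyltransferase Zdhhc20 was at 0.34, Vcp at 0.14 and the metalloprotease Zmpste24 at -0.014, not called (-0.091, adjusted p = 0.0374, under scaling by total count alone).

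Other antiviral genes of the interferon response were called higher in 29 of 30 tested cases, with a median log2 fold change of 0.98, against 0.90 for the 8 members. Beside Ch25h, Parp14 was at 2.19, Rsad2 (viperin) at 1.78 and the ubiquitin-like Isg15 at 1.63. The exception was Pml at 0.032, not called, whose value became -0.044 when libraries were scaled by total count alone. Ifit3 thus lay near the top of the range of this list, Ifit1 in its upper part, and Ifitm3 toward its lower end.

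**Figure D4:**
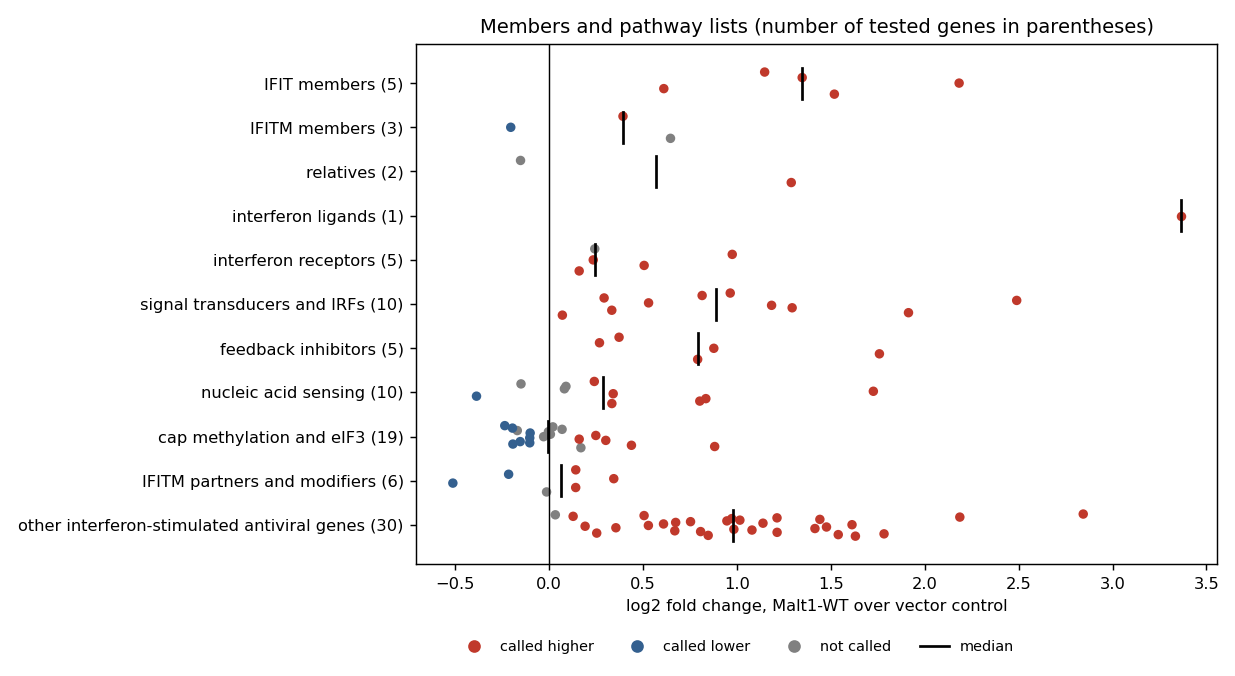
Log2 fold change, Malt1-WT over vector control, of each tested gene by list, with a bar at the list's median. The 5 IFIT members have a median of 1.35, the 30 other antiviral genes 0.98, and the 19 cap and eIF3 genes lie around 0.

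The genes whose profile over the 6 libraries was nearest to the mean profile of the IFIT members, by Euclidean distance of centred log2 CPM, were Amhr2 (0.119), Nfkbia (0.122), Trafd1 (0.135), Mlkl (0.141) and Egln3 (0.148). For scale, the IFIT profile lay 1.64 from a flat line, and its members lay 0.291 (Ifit3b) to 1.05 (Ifit3) from their own mean. That mean profile, Ifit1bl1 included, differed by 1.33 between the groups, and its 5 nearest genes had log2 fold changes of 1.29 to 1.42. Nearness thus mainly picks genes with a group difference of that size, and it does not show shared control. Nfkbia encodes an NF-kB inhibitor and Mlkl the effector of necroptosis. The IFITM profile, the mean of 1 gene called higher, 1 called lower and 1 not called, was 0.494 from flat. Its nearest genes were Prkcz (0.155), Ift22 (0.162), Xlr4c (0.179), Rabepk (0.191) and Krtcap2 (0.197). Of these, Prkcz and Xlr4c were not called (edgeR adjusted p = 0.0587 and 0.142), though Prkcz was called without replicate 2 of either group. The call of Ift22 was lost in DESeq2 (adjusted p = 0.0540) and in edgeR without vector control replicate 1 (adjusted p = 0.0600). Ifitm3 itself lay 0.367 from that mean, Ifitm2 0.664, and Ifitm1, which had few reads, 0.764.

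Total counts were 17601656 to 20543778 per library. Malt1, the introduced gene, had 309, 308 and 297 CPM in Malt1-WT, against 28.5, 31.1 and 30.4 CPM in vector control, as labelled. Of the epithelial markers Krt8 had 59.7 CPM in Malt1-WT and 68.6 CPM in vector control and was called lower (log2 fold change -0.20), Epcam was low, and Krt18 and Cdh1 had at most 9 reads in any library. The mesenchymal marker Vim was also lower, at 1658 CPM in Malt1-WT and 3087 CPM in vector control (log2 fold change -0.90, edgeR adjusted p = 1.44e-35). The summed level of 9 leukocyte markers was 15.9 to 18.3 CPM in Malt1-WT and 4.80 to 5.79 CPM in vector control, mostly Cd68, and Adgre1 had 81 reads in all in Malt1-WT and 3 in vector control. The pan-leukocyte gene Ptprc had 4 reads in all in Malt1-WT and 3 in vector control, and Tyrobp and Nkg7 had 0. The summed level of 3 endothelial markers was 10.2 to 10.8 CPM in Malt1-WT and 4.58 to 5.70 CPM in vector control, and that of 4 fibroblast markers 478 to 519 CPM in Malt1-WT and 555 to 585 CPM in vector control. Of the fibroblast markers, Pdgfrb was called higher (log2 fold change 0.57), and Col1a1 (-0.88), Col3a1 (-0.66) and Pdgfra (-0.48) lower. The part of the epithelial, mesenchymal, leukocyte, endothelial and fibroblast markers in the results was not tested.

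In the authors' deposited table, the log2 fold changes of the 8 members had the same signs as above and ran from -0.23 for Ifitm2 to 2.17 for Ifit3. The authors' deposited table gave adjusted p-values of 0.00174 for Ifit3, 0.0124 for Ifit1 and 0.359 for Ifit3b, and 1 for the other 5. The t statistic in the authors' deposited table was 0 wherever the absolute log2 fold change was under 1 (50005 genes), with Ifit2 and the 3 IFITM members among them, so those adjusted p-values do not speak to smaller changes.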

How the data were processed

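RNA from 6 libraries was measured by sequencing. Per the labels' protocols, total RNA went into a strand-specific library kit (NEBNext Ultra II Directional) and paired-end reads of 150 bases. Per the submitters' processing notes, the tools were featureCounts 1.6.3, STAR 2.7.3a and Trim Galore 0.6.0, and the build was GRCm38.p6 (mm10). The authors deposited 1 table of raw counts per gene symbol, 1 column per library. Per the file headers, the same table holds the authors' log2 fold change, a t statistic (used as a score), p-values and adjusted p-values. No label or header states the annotation, the strand setting or the counting of multi-mapped reads.

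Groups and replicate numbers came from the sample titles. Counts were fitted with edgeR 4.0.16 in R 4.3.3: filterByExpr with a minimum count of 10, TMM scaling, and the robust quasi-likelihood test over all 6 libraries, with no block. Standard errors are the absolute log2 fold change over the square root of F. Benjamini-Hochberg adjustment ran over all 13594 tested genes. The log2 ratios added 0.5 counts. The script was tested on a simulation of this comparison with 13405 tested genes, of which 50 were changed at each fold. It recovered 46% of genes changed 1.2-fold, 84% of those changed 1.5-fold or 2-fold and 96% of those changed 4-fold, with 9 false calls. Far fewer genes were changed there than were called in these data, so recovery here may differ. No 2 libraries of a group agreed within sampling noise (chi-square of at least 2.19 per degree of freedom over genes), so all 6 were kept. Exon lengths, coordinates and shared stretches came from GENCODE M21 on GRCm38, and promoters from RefSeq on GRCm38.p6.

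The genes described, the lists and the tests were chosen with earlier results of these data known. Named were all members and relatives, and Malt1. Of each list, up to 4 called genes with the largest change were named, together with genes that went against the list or were not called where these were 5 or fewer; 1 gene that this rule names is not reported here. Neighbours at least 2-fold changed or nearest on each side, and the 5 genes nearest in pattern to each family (mean log2 CPM 1 or more), were also named. The lower genes of the cap and eIF3 list, and Jak1, were named outside these rules. Alternatives were other scalings, filters, DESeq2 1.42.0, a replicate block and leaving out each library.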

Additional observations from a re-analysis of the deposited data

How the results depend on the processing

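Across 13 alternative settings, 7 of the 8 members kept their direction and their call in each setting that could test them. So did 45 of 53 other genes named by rule. Ifitm1 was not called in any setting. A minimum count of 30 left Ifit1bl1, Ifitm1 and Ifnb1 untested, so the count of higher interferon ligands was 0 there. Ifit1bl1 was not called without a filter (log2 fold change 1.14, adjusted p = 0.0566) or in DESeq2 (1.17, adjusted p = 0.127), and leaving out a library gave 0.89 to 1.59 (adjusted p over all alternatives 0.0123 to 0.130). Against a 1.5-fold change, Ifit2 (0.61, adjusted p = 0.586), Ifit1bl1 (1.15, adjusted p = 0.198), Ifitm2 (-0.21, adjusted p = 1) and Ifitm3 (0.39, adjusted p = 1) were not called. Of the relatives, 1 was called lower without a filter, and leaving out a library gave 0 to 1 lower and 1 to 2 higher. Of the 2 IFIT neighbours called lower, Acta2 and Kif20b, 1 was called in DESeq2 and 1 to 2 with a library left out. The signs of 3 genes that were not called turned: Pml at -0.044 under scaling by total count alone, and Zmpste24 at 0.010 and Ifitm6 at 0.011 without vector control replicate 2 (-0.058 to 0.010 and -0.32 to 0.011 over the left-out libraries). Scaling by total count alone shifted the median log2 fold change of all genes to -0.079 and gave 3528 genes higher and 5006 lower, against 4210 and 4110 with TMM. There the genes called lower numbered 10 of the cap and eIF3 list and 10 of the IFITM neighbours, against 7 and 7, and DESeq2 gave 5 IFITM neighbours lower. The cause of these changes was not tested.

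Same-numbered libraries did not deviate together (correlations -0.0261 to 0.0174, and 2 of 6 libraries correlated best with their own number). With the replicate number as a block, 8168 genes were called, against 8320 without it, and the members again gave 6 higher and 1 lower. Among the genes named by rule the block changed 1 call, that of Pgghg (adjusted p = 0.0544). Depth limits Ifit1bl1 and Ifitm1, which had at most 19 reads in a library, and read sharing limits Ifit3 against Ifit3b.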
